A study of Mus musculus with 12 samples.

Results

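Genes of steroid hormone metabolism were followed in mouse liver, 10 in all, namely Hsd11b1, Hsd3b2, Hsd3b3, Hsd17b2, Hsd17b6, Hsd17b13, Srd5a1, Srd5a2, Cyp17a1 and Nr3c1. They were chosen by name as enzymes that form, interconvert or inactivate steroid hormones, together with the glucocorticoid receptor, and all 10 were among the 36528 gene IDs measured and the 16032 genes tested. RNA-seq read counts came from whole liver of 6 mice injected with carbon tetrachloride (CCl4), a solvent that liver cells turn into a toxic radical, and of 6 mice injected with the corn oil vehicle. Both groups were injected intraperitoneally 3 times per week for 6 weeks, so injection and its schedule were shared by all 12 mice. The labels give no strain, sex, age, litter or batch. Xist, the transcript of the inactive X chromosome, was at 0.220 CPM at most in the 12 libraries, and the Y-linked Ddx3y was between 34.6 and 121 CPM in all of them. Repeated CCl4 injures and scars the liver, and the comparison asks which transcripts of a chronically injured liver stand above or below the level under vehicle.

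The liver both responds to steroid hormones and disposes of them. Hydroxysteroid dehydrogenases oxidise or reduce single positions of the steroid ring and thereby switch a hormone between active and weak forms, while ring reductases and conjugating enzymes lead to products that leave the body. Hsd11b1 works the other way for glucocorticoids, since it regenerates the active hormone from its inert keto form inside the hepatocyte, where it acts through the receptor encoded by Nr3c1.

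Levels are given as CPM, read counts per 1e+06 reads of the library after TMM scaling, and differences as the log2 fold change of CCl4 over oil with its standard error (SE) from edgeR's quasi-likelihood test. A gene was called when its p-value, adjusted over all 16032 tested genes by the Benjamini-Hochberg method, was under 0.05. Library totals ran from 53602695 to 69203292 reads in CCl4 livers and from 43027778 to 70375852 in oil livers. Transcripts of 10 markers of activated stellate cells, the scar-forming cells of the liver, summed to between 723 and 1003 CPM in CCl4 livers and between 121 and 206 CPM in oil livers, and 10 macrophage markers to between 526 and 856 CPM against 183 to 266 CPM. The sums of 11 hepatocyte transcripts overlapped, at 131170 to 184130 CPM in CCl4 livers and 125370 to 171160 CPM in oil livers. Alb made up much of these sums, with means of 77063 CPM in CCl4 livers and 78023 CPM in oil livers. Taken singly, 4 of the 11 were called lower in CCl4 and 2 higher. Skeletal muscle markers summed to 246 CPM in CCl4 replicate 1 and 45.6 CPM in CCl4 replicate 3 and to no more than 1.47 CPM in the other 10 libraries. In whole liver, fewer cells of a type and less RNA per cell cannot be told apart, and the part of the cell mixture in the values below was not tested.

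Of the 10 genes, 4 rose (Hsd17b6, Hsd17b13, Srd5a2 and Cyp17a1), 5 fell (Hsd3b2, Hsd3b3, Hsd17b2, Srd5a1 and Nr3c1) and Hsd11b1 was not called. Changes were common in this comparison: 39.0% of all tested genes were called, 20.6% as higher in CCl4 and 18.4% as lower. In Hsd3b2, Srd5a1, Srd5a2 and Cyp17a1 every CCl4 liver lay beyond every oil liver, 4 of 10 genes, while 20% of all tested genes did so. The median log2 fold change of the 10 was -0.41 against 0.01 for all tested genes. The fitted values of the 10 ran from -1.47 for Hsd3b2 to 2.33 for Cyp17a1. With upper-quartile scaling, 67.3% of all calls were rises in place of 52.8% with TMM and the median of all genes stood at 0.13, and with scaling to the hepatocyte transcripts it was 69.5% and 0.14. Genes called lower numbered 2951 with TMM, 2022 with upper-quartile scaling and 1703 with scaling to hepatocyte transcripts. Counts of fallen genes in the lists below are those with TMM unless stated. No direction among the 10 genes changed under these scalings.

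**Figure D1:**
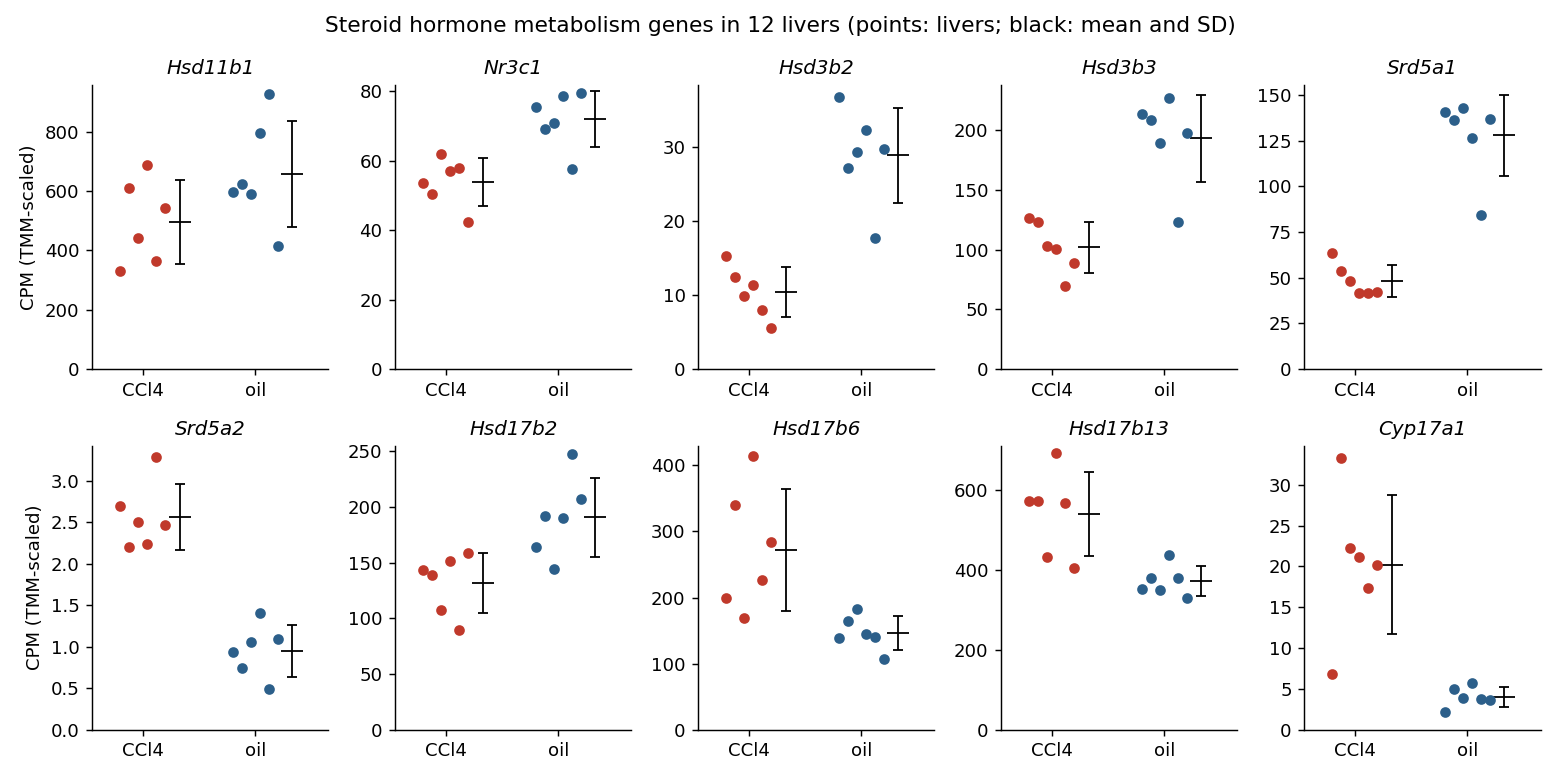
CPM of each of the 10 genes in each liver (points), with the mean and SD of each group in black; every axis starts at 0 and has its own range. The 6 CCl4 livers stood clear of the 6 oil livers for Hsd3b2, Srd5a1, Srd5a2 and Cyp17a1 and overlapped with them for the other 6 genes, most for Hsd11b1, with 4 CCl4 livers inside the oil range.

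**Figure D2:**
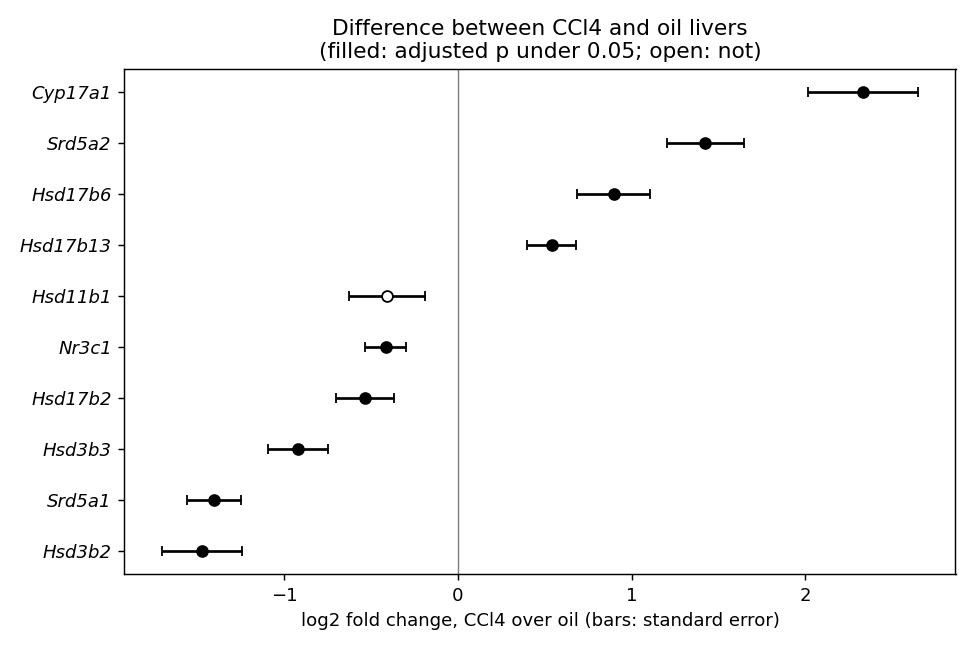
Log2 fold change of CCl4 over oil for each gene (points) with its standard error (bars), filled where the adjusted p was under 0.05. Values ran from 2.33 for Cyp17a1 at the top to -1.47 for Hsd3b2 at the bottom, and Hsd11b1 is the open point at -0.41.

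Glucocorticoid activation and reception were considered first. Hsd11b1 (gene ID 15483, chr1:193221640-193264045 of GRCm38, minus strand), the enzyme that regenerates corticosterone, had the lowest, median and highest values of 329, 491 and 690 CPM in CCl4 livers and 415, 609 and 928 CPM in oil livers. The groups overlapped, with 2 CCl4 livers below all oil livers and the other 4 inside the oil range. The means were 496 ± 142 CPM in CCl4 livers and 658 ± 179 CPM in oil livers (SD, n = 6 each), and the difference did not pass the test (log2 fold change -0.41 ± 0.22 SE, edgeR adjusted p = 0.148). The gene passed in 1 of 22 alternatives, in which a slope of expression on transcript length entered as a covariate (-0.78, adjusted p = 0.000492). That slope, computed per library over genes as log2 CPM against log2 length, ran from -0.36 to 0.19 in CCl4 livers and from -0.13 to 0.28 in oil livers. H6pd, which supplies the reduced cofactor that Hsd11b1 needs, was at 307 ± 88.0 CPM in CCl4 livers and 525 ± 95.4 CPM in oil livers and fell (-0.77 ± 0.19 SE, adjusted p = 0.00639). H6pd and the genes Por, Cyb5a, Serpina6, Fkbp5, Akr1c6 and Akr1c14 given further on were chosen after their values were seen.

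Nr3c1 (gene ID 14815, chr18:39410545-39519421, minus strand), the glucocorticoid receptor, fell modestly. Its lowest, median and highest values were 42.3, 55.3 and 62.1 CPM in CCl4 livers and 57.7, 73.2 and 79.4 CPM in oil livers. In 4 of the 6 CCl4 livers it was below all oil livers, and oil replicate 5 was the oil liver inside the CCl4 range. The means were 53.9 ± 6.90 CPM in CCl4 livers and 71.9 ± 8.06 CPM in oil livers (SD, n = 6 each), which is 1.33-fold lower in CCl4 (-0.42 ± 0.12 SE on the log2 scale, adjusted p = 0.0140). Upper-quartile scaling (-0.30, adjusted p = 0.0729) and scaling to hepatocyte transcripts (-0.30, adjusted p = 0.151) each ended this call. With TMM scaling, 18.4% of all tested genes fell. Of 13 tested genes for other steroid receptors, receptor chaperones and carriers, 10 fell and none rose, with a median of -0.58. When scaled to hepatocyte transcripts, 6 of the 13 were called. Among them were Fkbp4, a co-chaperone of steroid receptors, at 150 ± 15.9 CPM in CCl4 livers and 215 ± 7.52 CPM in oil livers (-0.52, adjusted p = 0.00114), and Ncor1, a co-repressor of nuclear receptors, at 39.5 ± 14.1 CPM against 77.8 ± 17.6 CPM (-0.98, adjusted p = 0.00383). Serpina6, which encodes the corticosteroid-binding globulin of plasma, was at 71.4 ± 38.9 CPM in CCl4 livers and 150 ± 22.2 CPM in oil livers (-1.07, adjusted p = 0.0121).

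Genes that glucocorticoids are known to induce were mostly lower. Of 20 tested, 12 fell and 2 rose, with a median of -0.75, where 18.4% of all tested genes fell and 20.6% rose. Tat, tyrosine aminotransferase, was at 777 ± 97.8 CPM in CCl4 livers and 2381 ± 597 CPM in oil livers (-1.62, adjusted p = 8.55e-06), and G6pc, the last enzyme of glucose release, at 183 ± 115 CPM against 1481 ± 360 CPM (-3.02, adjusted p = 1.13e-05). Angptl4, an inhibitor of lipoprotein lipase, was at 30.3 ± 4.75 CPM in CCl4 livers and 65.9 ± 15.9 CPM in oil livers (-1.12, adjusted p = 0.000131). Cdkn1a, the cell cycle inhibitor p21, went the other way, at 57.2 ± 9.63 CPM in CCl4 livers and 24.7 ± 11.3 CPM in oil livers (1.21, adjusted p = 0.00173). Fkbp5, a chaperone often read as a sign of receptor activity, was at 46.0 ± 11.9 CPM in CCl4 livers and 30.2 ± 14.7 CPM in oil livers and was not called (0.61, adjusted p = 0.0813), though it was with upper-quartile scaling (0.73, adjusted p = 0.0334), scaling to hepatocyte transcripts (0.74, adjusted p = 0.0323), limma-voom (0.85, adjusted p = 0.00253) and without oil replicate 5 (0.90, adjusted p = 0.00292). All of these genes also answer to signals other than glucocorticoids.

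Both 3-beta-hydroxysteroid dehydrogenases fell. These enzymes oxidise the hydroxyl group of precursors such as pregnenolone on the way to active steroids, and their genes lie close together on chromosome 3. Hsd3b2 (gene ID 15493, chr3:98711107-98724543, minus strand) had 5.51, 10.7 and 15.3 CPM as its lowest, median and highest values in CCl4 livers and 17.8, 29.5 and 36.9 CPM in oil livers. The groups did not overlap, and CCl4 replicate 1 and oil replicate 5 came closest to each other. The means of 10.4 ± 3.43 CPM in CCl4 livers and 28.9 ± 6.38 CPM in oil livers (SD, n = 6 each) were 2.77-fold apart, lower in CCl4 (-1.47 ± 0.23 SE, adjusted p = 0.000195). Hsd3b3 (gene ID 15494, chr3:98741476-98764540, minus strand) had 69.2, 102 and 127 CPM in CCl4 livers and 123, 203 and 227 CPM in oil livers. It was below all oil livers in 5 of the 6 CCl4 livers, and oil replicate 5, at 123 CPM, was alone inside the CCl4 range while the other oil livers were at 189 CPM or more. Its means were 102 ± 21.4 CPM in CCl4 livers and 193 ± 36.8 CPM in oil livers, 1.89-fold lower in CCl4 (-0.92 ± 0.17 SE, adjusted p = 0.000859). Without oil replicate 5 the values were -1.58 for Hsd3b2 and -1.03 for Hsd3b3, and without CCl4 replicate 1 they were -1.63 and -1.01.

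The 2 genes share sequence: 17.7% of the 75-base windows of the Hsd3b2 transcript and 21.0% of those of Hsd3b3 occur in another gene of the family, so that some reads could be assigned to either. How the authors counted such reads is not given in the sources used here. Both spans also overlap Zfp697 on the other strand. The other genes of the family were listed in advance because reads might be shared. At this window length, however, the pair shared windows only with each other and with Hsd3b6. Hsd3b5, a ketosteroid reductase of male mouse liver, had 0.411 to 8.26 CPM in CCl4 livers and 140 to 256 CPM in oil livers, means of 3.68 ± 3.40 and 197 ± 37.1 CPM (-5.75 ± 0.62 SE, adjusted p = 8.56e-06, and -6.66 with limma-voom). Hsd3b1, the form of steroid-making tissues, was at 0.437 ± 0.159 CPM in CCl4 livers and 0.974 ± 0.186 CPM in oil livers (-1.15, adjusted p = 0.00424). Hsd3b7, which acts on bile acid precursors, was at 371 ± 74.1 CPM in CCl4 livers and 674 ± 80.2 CPM in oil livers (-0.86, adjusted p = 0.000509), and 93.8% of its windows recur in the overlapping model Gm49388. Hsd3b4 had no count in any library, and as 100% of its windows recur in other genes, among them Hsd3b5, its level cannot be read from this. Hsd3b6 was at 0.0470 CPM or less in CCl4 livers and 0.0998 CPM or less in oil livers and was not tested.

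The upstream sequences of the pair are shown because the genes are neighbours in 1 family and both fell. Each is the 250 bases before the transcription start as given by RefSeq for GRCm38.p6, read 5′ to 3′ on the minus strand, chr3:98724544-98724793 for Hsd3b2 and chr3:98763129-98763378 for the first of the 2 start sites of Hsd3b3. Both Hsd3b3 start sites lie inside the span of the gene given above, so the bases before its outer 5′ end were not examined. Capitals mark the glucocorticoid receptor half-site AGAACA, searched on both strands.
Hsd3b2: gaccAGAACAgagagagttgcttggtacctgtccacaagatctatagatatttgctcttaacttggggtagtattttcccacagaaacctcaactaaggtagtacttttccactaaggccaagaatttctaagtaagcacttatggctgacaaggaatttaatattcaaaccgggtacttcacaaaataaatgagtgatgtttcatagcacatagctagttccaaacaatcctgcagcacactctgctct
Hsd3b3: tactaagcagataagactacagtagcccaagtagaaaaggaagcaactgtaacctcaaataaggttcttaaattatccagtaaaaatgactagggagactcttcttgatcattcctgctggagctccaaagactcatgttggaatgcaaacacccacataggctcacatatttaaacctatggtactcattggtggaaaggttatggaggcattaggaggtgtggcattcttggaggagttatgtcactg
The Hsd3b2 window held 1 half-site, 246 to 241 bases before the start, and the Hsd3b3 window none. Of 32851 RefSeq windows of the same length, 16.1% held the half-site. The windows of the pair were identical at 119 of 250 positions (47.6%) in global alignment. The Hsd11b1 window reached 51.6% with that of Hsd3b2 and 48.4% with the first of Hsd3b3. The first Hsd3b3 window was identical to that of Hsd3b5 at 151 positions (60.4%). RefSeq windows were examined for 7 of the 10 genes, and those of Hsd17b2, Cyp17a1 and Nr3c1 were not. The Hsd11b1 window also lies inside the span of its gene. Among the 7, Hsd3b2 alone held the half-site, and none held the full palindrome of half-sites spaced by 3 bases, found in 0.009% of all windows, or the STAT motif TTCNNNGAA, found in 7.02%. No match says only that these letters are not in these windows.

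The steroid ring reductases moved apart. Srd5a1 and Srd5a2 encode enzymes with the same reaction, the reduction of the ring double bond of testosterone, progesterone and corticosterone, and Srd5a1 is the main form in liver. Srd5a1 (gene ID 78925, chr13:69573449-69611485, minus strand) had 41.6, 45.0 and 63.3 CPM as lowest, median and highest values in CCl4 livers and 84.4, 137 and 143 CPM in oil livers. No CCl4 liver reached the lowest oil liver, which was replicate 5. The means were 48.4 ± 8.74 CPM in CCl4 livers and 128 ± 22.1 CPM in oil livers (SD, n = 6 each), 2.65-fold lower in CCl4 (-1.40 ± 0.16 SE, adjusted p = 1.07e-05). Srd5a2 (gene ID 94224, chr17:74014891-74047860, minus strand) had 2.20, 2.49 and 3.29 CPM in CCl4 livers and 0.494, 0.996 and 1.40 CPM in oil livers. All CCl4 livers were above all oil livers, on counts of 19 to 248 reads per library. Its means were 2.57 ± 0.397 CPM in CCl4 livers and 0.954 ± 0.313 CPM in oil livers, a 2.68-fold higher level (1.42 ± 0.22 SE, adjusted p = 0.000183). Per kilobase of transcript, Srd5a1 remained the more abundant of the pair, at 18.3 CPM against 1.60 CPM for Srd5a2 in CCl4 livers and 48.4 against 0.594 CPM in oil livers. Of the windows of Srd5a1, 15.7% recur in the overlapping Gm17108, and its span also overlaps Nsun2 on the other strand. For Srd5a2, 4.7% of windows recur in CT025731.1, which overlaps it on the same strand.

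The 250 bases before the start of each reductase are shown for the same build and strand, chr13:69611464-69611713 for Srd5a1 and chr17:74047861-74048110 for Srd5a2, because the genes moved in opposite directions. Neither holds any of the motifs searched, so no letter is in capitals.
Srd5a1: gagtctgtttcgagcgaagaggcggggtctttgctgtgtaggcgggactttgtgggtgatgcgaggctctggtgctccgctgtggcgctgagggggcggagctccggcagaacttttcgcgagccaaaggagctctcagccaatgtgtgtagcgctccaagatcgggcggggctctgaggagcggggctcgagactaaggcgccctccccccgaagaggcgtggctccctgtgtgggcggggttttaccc
Srd5a2: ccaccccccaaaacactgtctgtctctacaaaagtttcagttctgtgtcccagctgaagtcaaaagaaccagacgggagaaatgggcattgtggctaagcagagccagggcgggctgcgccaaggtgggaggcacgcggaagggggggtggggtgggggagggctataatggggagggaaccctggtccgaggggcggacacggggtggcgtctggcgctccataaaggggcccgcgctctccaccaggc
Both windows were rich in G and C, with 64.8% for Srd5a1 and 63.2% for Srd5a2, against 39.6% for Hsd3b2, 41.2% for Hsd3b3 and a median of 52.4% over all windows. They were identical to each other at 50.8% of positions.

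Of 9 tested genes for other steroid reductases, 4 fell and 2 rose, with a median of -0.12. Of all tested genes, 18.4% fell and 20.6% rose. Akr1d1, which reduces the same ring double bond to the other configuration and also serves bile acid synthesis, was at 71.3 ± 24.1 CPM in CCl4 livers and 217 ± 35.1 CPM in oil livers (-1.60, adjusted p = 4.53e-05). Srd5a3, a polyprenol reductase needed for protein glycosylation, rose to 21.9 ± 2.99 CPM in CCl4 livers, against 13.7 ± 1.80 CPM in oil livers (0.68, adjusted p = 0.000844). Akr1c18, which inactivates progesterone, ranged from 3.49 to 17.2 CPM in CCl4 livers and from 0 to 0.224 CPM in oil livers (fitted log2 fold change 7.01 ± 0.54 SE, adjusted p = 6.81e-07). With so few reads in oil livers the size of that change is uncertain, while the groups did not overlap. Akr1c14, which reduces the keto group of ring-reduced steroids, fell (-0.80, adjusted p = 0.0104), and Akr1c6, which reduces the keto group of androstenedione and estrone, was at 1487 ± 389 CPM in CCl4 livers and 1285 ± 222 CPM in oil livers and was not called (0.21, adjusted p = 0.376). The Akr1c genes are close copies in 1 cluster and may share reads.

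The 17-beta-hydroxysteroid dehydrogenases did not move as 1 group. Hsd17b2 (gene ID 15486, chr8:117700982-117759030, plus strand), which oxidises estradiol and testosterone to their weak keto forms, had 89.7, 141 and 159 CPM as lowest, median and highest values in CCl4 livers and 144, 191 and 247 CPM in oil livers. In 4 of the 6 CCl4 livers it was below all oil livers, and oil replicate 3 lay within the CCl4 range. The means were 132 ± 27.1 CPM in CCl4 livers and 191 ± 35.7 CPM in oil livers (SD, n = 6 each), 1.45-fold lower in CCl4 (-0.54 ± 0.17 SE, adjusted p = 0.0204). The call was lost with upper-quartile scaling (-0.41, adjusted p = 0.0560).

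Hsd17b6 and Hsd17b13 rose. Hsd17b6 (gene ID 27400, chr10:127990931-128007648, minus strand) oxidises androstanediol back to the potent androgen dihydrotestosterone. It had 168, 255 and 414 CPM in CCl4 livers and 106, 142 and 183 CPM in oil livers, and 5 of the 6 CCl4 livers were above all oil livers. Its means were 272 ± 92.9 CPM in CCl4 livers and 146 ± 26.0 CPM in oil livers, a 1.86-fold higher level (0.90 ± 0.21 SE, adjusted p = 0.00418). Of its windows, 12.02% recur in retinol dehydrogenase genes of the same cluster. All 174 of these recur in Rdh16f1 and in Rdh1, which was scarce and not called (-0.22, adjusted p = 0.623). The scarce Rdh18-ps shared 65 windows and fell (-3.53, adjusted p = 3.68e-06). Rdh9 shared 45 and also rose (1.17, adjusted p = 0.000182). Rdh16 shared 30 and fell (-1.69, adjusted p = 7.52e-07), and the abundant Rdh7 shared 29 and was not called (-0.42, adjusted p = 0.0892). Hsd17b13 (gene ID 243168, chr5:103955442-103977388, minus strand) encodes a protein of the hepatocyte lipid droplet whose human form oxidises retinol. Its lowest, median and highest values were 405, 569 and 692 CPM in CCl4 livers and 328, 366 and 437 CPM in oil livers. Hsd17b13 was above all oil livers in 4 of the 6 CCl4 livers, and oil replicate 4 reached into the CCl4 range. The means of 540 ± 106 CPM in CCl4 livers and 371 ± 37.6 CPM in oil livers gave a 1.45-fold higher level (0.54 ± 0.14 SE, adjusted p = 0.00779).

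Beyond the 10 genes, hydroxysteroid dehydrogenases were lower or not called. Of 10 others tested, 8 fell and none rose, with a median of -0.72, and in 6 of them all CCl4 livers lay below all oil livers. Hsd17b4, a peroxisomal enzyme of fatty acid and bile acid oxidation, was at 239 ± 33.4 CPM in CCl4 livers and 480 ± 38.1 CPM in oil livers (-1.01, adjusted p = 1.76e-05). This list includes Hsd3b1, Hsd3b5, Hsd3b7 and H6pd given above. Several genes of the list act mainly on lipids and not on hormones.

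**Figure D3:**
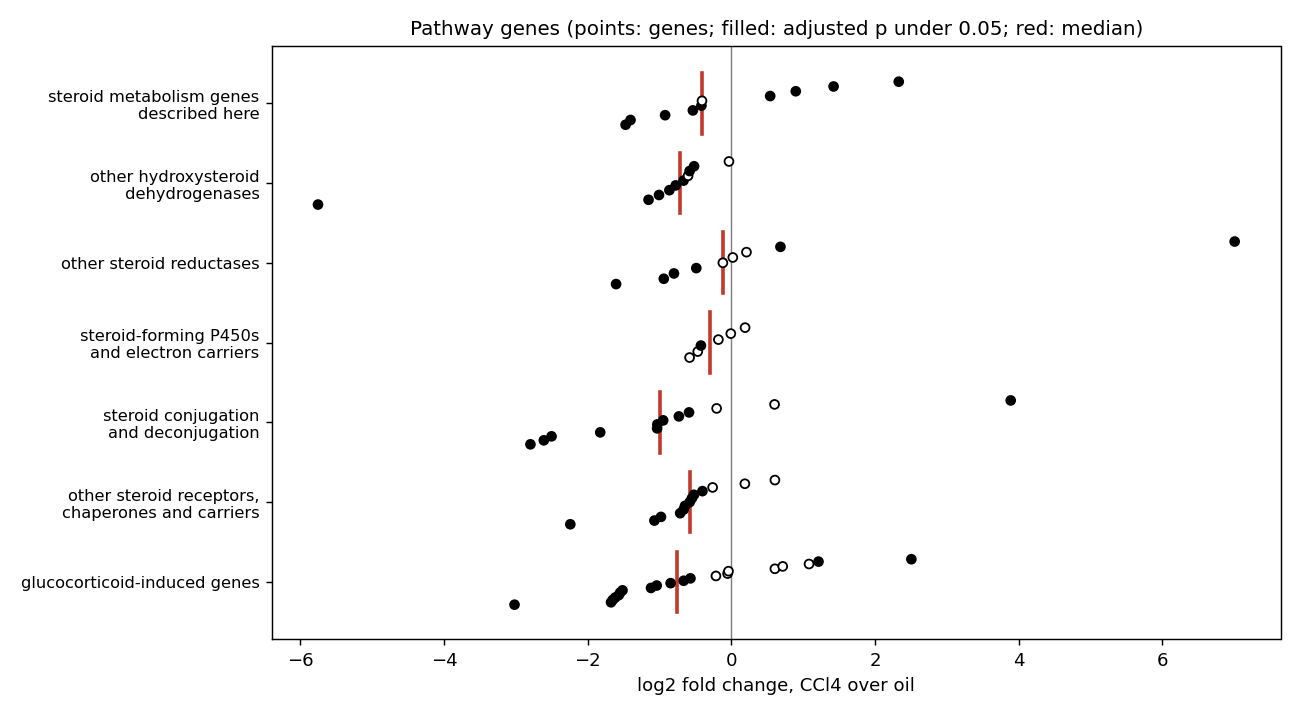
Log2 fold change of CCl4 over oil for the 10 genes (top row) and for the tested genes of 6 related lists; filled points passed an adjusted p of 0.05 and red bars are list medians. The 10 genes fall on both sides of 0, the medians of all 6 lists lie below 0, and the most distant points are Akr1c18 at 7.01 and Hsd3b5 at -5.75.

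Cyp17a1 (gene ID 13074, chr19:46667165-46673000, minus strand) had the largest rise of the 10. It encodes the P450 enzyme that hydroxylates pregnenolone and progesterone and splits their side chain on the way to androgens, and it is best known from gonads and, in other species, the adrenal cortex. The lowest, median and highest values were 6.82, 20.7 and 33.2 CPM in CCl4 livers and 2.18, 3.81 and 5.69 CPM in oil livers. The groups did not overlap, although CCl4 replicate 1, at 6.82 CPM, was far below the other CCl4 livers, which had 17.4 CPM or more. The means were 20.2 ± 8.52 CPM in CCl4 livers and 4.02 ± 1.22 CPM in oil livers (SD, n = 6 each), a 5.03-fold higher level (2.33 ± 0.32 SE, adjusted p = 5.98e-05). Without CCl4 replicate 1 the log2 fold change was 2.49, and it was 1.99 when length slopes entered as a covariate.

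Transcripts that mark adrenal or gonad were present at low levels. The 8 markers summed to between 3.89 and 10.1 CPM in CCl4 livers and between 3.07 and 7.42 CPM in oil livers. Cyp11b1, the enzyme that completes corticosterone, and Mc2r, the adrenal receptor for ACTH, had no read in any library. Of 6 kidney markers, Kap and Aqp2 had no read in any library, and the sum of the 6 was at most 0.0133 CPM in CCl4 livers and 0.0309 CPM in oil livers. Of 6 tested genes for other steroid-forming P450 enzymes and electron carriers, 1 fell and none rose, with a median of -0.30. This was Fdxr, which passes electrons to mitochondrial P450 enzymes, at 17.3 ± 3.04 CPM in CCl4 livers and 23.2 ± 3.98 CPM in oil livers (-0.42, adjusted p = 0.0393). The call of Fdxr was lost under upper-quartile scaling (adjusted p = 0.128), scaling to hepatocyte transcripts, both other filters, the test against 1.5-fold, the length slope and the removal of any of CCl4 replicates 2, 3, 4 and 6 or oil replicates 2, 3, 4 and 6 (adjusted p between 0.0534 and 0.0838). Por, which passes electrons to Cyp17a1 and other microsomal P450 enzymes, was at 180 ± 45.8 CPM in CCl4 livers and 270 ± 103 CPM in oil livers and was not called (-0.58, adjusted p = 0.0731). It was called with DESeq2 (adjusted p = 0.0455) and without CCl4 replicate 4, oil replicate 1 or oil replicate 5 (adjusted p of 0.0424, 0.0225 and 0.0418). Cyb5a, cytochrome b5, which assists the side-chain cleavage by Cyp17a1, was at 1539 ± 510 CPM in CCl4 livers and 1547 ± 446 CPM in oil livers (-0.01, adjusted p = 0.983). With length slopes as a covariate it was called lower (-0.49, adjusted p = 0.00252).

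Transcripts of most genes listed for conjugation, the step that prepares steroids for excretion, were lower. Of 12 tested genes of this list, 9 fell and 1 rose, with a median of -0.99, while 18.4% of all tested genes fell. All 12 serve conjugation, as Sts, listed for deconjugation, was not analysed. Sult2a8, a sulfotransferase that acts on bile acids, was at 120 ± 55.8 CPM in CCl4 livers and 832 ± 161 CPM in oil livers (-2.80, adjusted p = 9.14e-06), and Ugt2b1, a glucuronosyltransferase, at 219 ± 32.0 CPM against 777 ± 193 CPM (-1.82, adjusted p = 2.87e-06). Sult1e1, the estrogen sulfotransferase, was the gene that rose, to 1.59 ± 0.609 CPM in CCl4 livers against 0.107 ± 0.108 CPM in oil livers (3.89 ± 0.48 SE, adjusted p = 2.63e-05), on as few as 1 read in a library. The Ugt2b genes are close copies in 1 cluster and may share reads.

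The order of the 10 genes by level differed between the groups. Per kilobase of transcript, Hsd17b13 (316 CPM) and Hsd11b1 (306 CPM) led in CCl4 livers, followed by Hsd17b6 (179), Hsd17b2 (99.7), Hsd3b3 (66.5), Srd5a1 (18.3), Cyp17a1 (11.1), Nr3c1 (8.51), Hsd3b2 (5.83) and Srd5a2 (1.60). In oil livers Hsd11b1 (406 CPM per kilobase) led, followed by Hsd17b13 (217), Hsd17b2 (145), Hsd3b3 (126), Hsd17b6 (96.0), Srd5a1 (48.4), Hsd3b2 (16.2), Nr3c1 (11.4), Cyp17a1 (2.21) and Srd5a2 (0.594). The ranges of neighbours in this order overlapped in CCl4 livers except between Hsd3b3 and Srd5a1 and between Hsd3b2 and Srd5a2. In oil livers they overlapped for Hsd17b2 with Hsd3b3, Hsd3b3 with Hsd17b6 and Hsd3b2 with Nr3c1, and the other 6 pairs of neighbours were apart. Hsd17b6 moved above Hsd17b2 and Hsd3b3 in CCl4 livers, and Cyp17a1 above Nr3c1 and Hsd3b2.

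**Figure D4:**
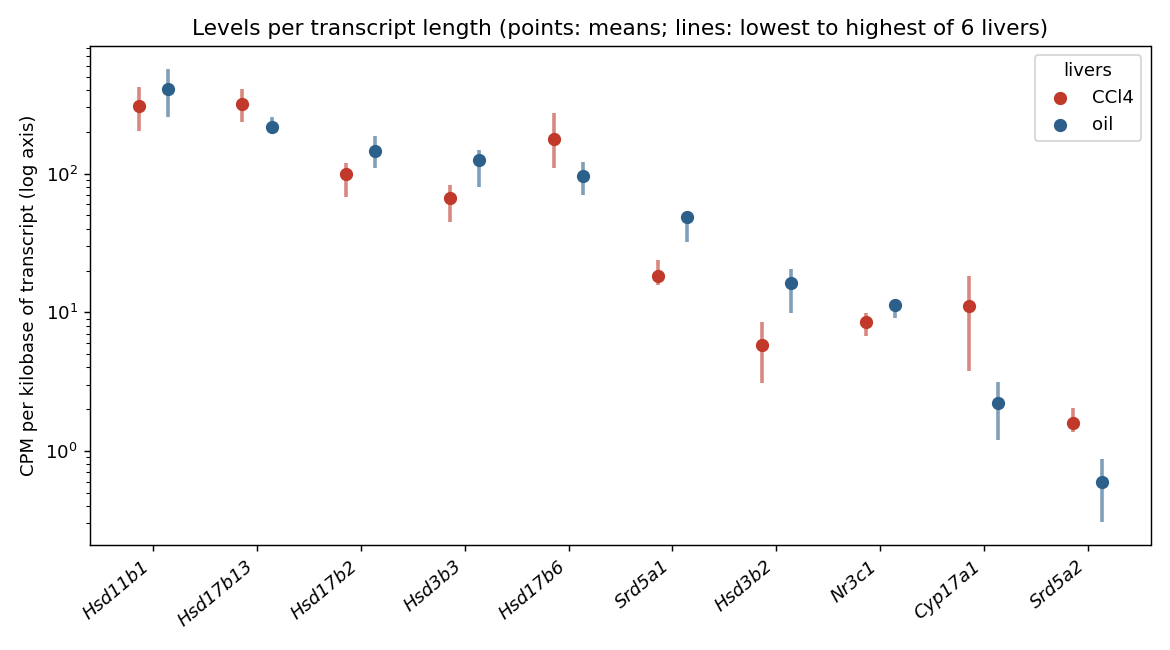
Mean CPM per kilobase of transcript in CCl4 and oil livers (points, log axis) with lines from the lowest to the highest of the 6 livers, genes ordered by their level in oil livers. Levels span from 406 for Hsd11b1 in oil livers to 0.594 for Srd5a2 in oil livers.

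Spread between livers differed by gene. The coefficient of variation was wide for Cyp17a1, 42.2% in CCl4 livers and 30.3% in oil livers, and for Srd5a2 among oil livers, 15.5% in CCl4 livers and 32.8% in oil livers, and narrow for Nr3c1, 12.8% and 11.2%. Hsd17b6 varied by 34.1% among CCl4 livers and 17.8% among oil livers, and Hsd17b13 by 19.6% and 10.1%. Single livers stood out across genes. Oil replicate 5 was the lowest oil liver for 5 of the 10 genes (Hsd3b2, Hsd3b3, Srd5a1, Srd5a2 and Nr3c1) and the highest for Hsd11b1 and Hsd17b2, and its length slope of -0.13 was the lone negative one among oil livers. CCl4 replicate 1, the library richest in muscle transcripts, was the CCl4 liver closest to the oil livers for Hsd3b2, Hsd3b3, Srd5a1 and Cyp17a1. Leaving out either of them, or any other single library, changed no call among the 10 genes.

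**Figure D5:**
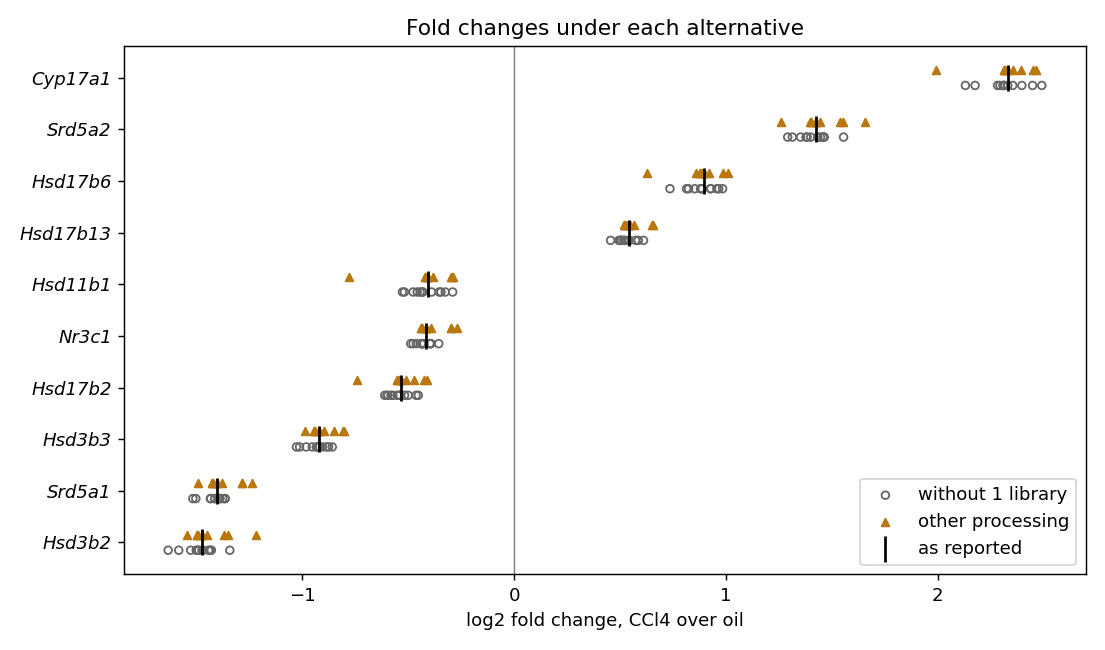
Log2 fold change of CCl4 over oil for each gene as reported (bars), without each single library (circles) and under other processing (triangles). No value crosses 0, and Hsd11b1 spreads from -0.78 to -0.29.

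For each gene, the tested genes with the most similar course over the 12 livers were found by the root mean square difference of log2 CPM, each gene centred on its own mean. Because both groups enter, genes with a like difference between CCl4 and oil come out as similar, so this is a description without a test. Nearest to Hsd11b1 were Bbox1 (0.12 on the log2 scale), Etfa and Acat1, and nearest to Nr3c1 were Tlk1, Snx9 and Sfxn2 (0.09 each). Hsd3b2 ran closest to Abca8a (0.23), Lonrf3 and Cat, and Hsd3b3 to Alas2 (0.14), Car14 and Ethe1. Srd5a1 was nearest to Aadat (0.16), Ces3a and Ddc, and Srd5a2 to Cd93 (0.22), Myl9 and Flna. Hsd17b2 was followed by Eme2 (0.13), Ncaph2 and Grhpr, Hsd17b6 by S1pr4 (0.16), Rfc3 and Ptger2, and Hsd17b13 by F8a (0.16), Rhog and Cyp39a1. Nearest to Cyp17a1 were Tspan8, Ear2 and Serpinb6a, differing from it by 0.43 each. The measure is not scaled to a gene's own spread over the 12 livers, an SD of 1.32 for Cyp17a1 and 0.28 for Nr3c1. Its values are therefore not compared between genes.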

How the data were processed

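Per the labels' protocols, whole-liver RNA was column-purified and made into libraries by a strand-specific kit for total RNA. The authors deposited whole-number read counts per gene, not normalised, and the 12 columns of the series table equalled the files of the samples. The build was GRCm38, per the submitters' processing notes. The aligner, counter, annotation and strand setting were not given in the sources used here, and copies of a family and overlapping genes may share reads. Of 36528 gene IDs, 10900 had no count, and RefSeq named 31049 and GENCODE M21 78.

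Groups came from the labels, and replicate numbers, given in accession order, only name libraries. The p-values measure the spread between these livers. No label says whether the groups were housed or injected apart, and the numbers in the sample titles run in a separate block for each group. A difference of that kind cannot be told apart from the treatment. Within groups no pair of libraries matched within sampling noise (lowest chi-square per gene 75.6 among CCl4 and 53.4 among oil libraries). In edgeR 4.0.16 under R 4.3.3, low counts were removed by filterByExpr, libraries were scaled by TMM, and the robust quasi-likelihood F test was run with no covariate. P-values were adjusted over 16032 genes by the Benjamini-Hochberg method, with a threshold of 0.05. Log2 CPM used a prior count of 2, and the SE is the log2 fold change divided by the square root of F. Transcript lengths are those of the longest protein-coding transcript linked to RefSeq. The script was tested on simulated counts.

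The 10 genes and all lists were chosen with earlier results of these data known. Named from each list were up to 3 called genes with the smallest p, the called gene with the smallest p against the list's majority, all genes of the Hsd3b family tested, and the 3 nearest genes to each of the 10. Of these genes, 1 is not reported here. Alternatives were DESeq2 1.42.0 size factors and Wald test, upper-quartile scaling, TMM without mitochondrial and the 20 largest genes, scaling to hepatocyte transcripts, limma-voom with quality weights (limma 3.58.1), no filter, 50 counts in 6 libraries, a test against 1.5-fold, a covariate for each library's length slope, and leaving out each library. Hsd17b8 was found under the symbol H2-Ke6. Sts and protein sequences were not analysed here.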

Additional observations from a re-analysis of the deposited data

Results flagged for a closer look

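Each of 70 sets of 6 livers, 1 for each gene named by rule or chosen later and each group, was examined for a liver far from the others, and 4 had one by Dixon's test at the 95% level. Chance gives about 1 in 20. Oil replicate 5 had 123 CPM of Hsd3b3 where the nearest oil liver had 189 CPM. The same liver had 84.4 CPM of Srd5a1, with the nearest oil liver at 126 CPM, and 819.9 CPM of G6pc, with the nearest at 1403 CPM. CCl4 replicate 5 had 237 CPM of Hsd3b7, with the nearest CCl4 liver at 350 CPM. In the 3 values of oil replicate 5 the liver lay towards the CCl4 group. What sets this liver apart was not tested.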

How the results depend on the processing

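None of the called genes recomputed under the alternatives changed direction, and the 10 genes were recomputed under 22 of them. Of 220 values of the 10 genes, 211 kept direction and call. In the test against 1.5-fold, 2381 genes and 4 of the 10 passed, and Hsd3b3 (-0.92), Hsd17b2 (-0.54), Hsd17b6 (0.90), Hsd17b13 (0.54) and Nr3c1 (-0.42) did not. Calls were also lost for Hsd17b2 (-0.41) and Nr3c1 (-0.30) with upper-quartile scaling and for Nr3c1 (-0.30) with scaling to hepatocyte transcripts, and Hsd11b1 passed once length slopes were a covariate (-0.78). The test against 1.5-fold is stricter by construction; for the other settings the cause was not tested. Without single libraries 5238 to 7514 genes were called, and all 9 called genes of the 10 stayed called. No paired analysis was possible because the replicate numbers come from accession order and pair no mice. Genes near 1 CPM, such as Srd5a2, rest on few reads.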
